A study of Mus musculus with 24 samples.

Results

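The comparison set all mouse heart libraries whose genotype label holds a full knockout of Acadl or Acadvl against all whose label holds none, with raw read counts per gene and the RNA isolation batch as a covariate. By that rule 13 of 24 libraries were knockout libraries: Acadl KO / Acadvl wt (n = 4), Acadl KO / Acadvl Het (n = 5) and Acadl Het / Acadvl KO (n = 4). The other 11 were Acadl wt / Acadvl wt (n = 4), Acadl Het / Acadvl wt (n = 4) and Acadl Het / Acadvl Het (n = 3), where Het is a heterozygote, so most of the libraries without a knockout still carried a mutant allele. All came from male mice aged 14 weeks, fed chow, of a mixed background that the labels describe as mostly C57BL/6N with some 129. The sources used here do not say how the alleles were made. The labels do not say that libraries came from separate mice, so each p-value measures only the spread between these libraries.

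Acadl and Acadvl encode the long-chain and very long-chain acyl-CoA dehydrogenases, which take the opening step of each round of fatty acid oxidation in mitochondria. The heart draws most of its fuel from long-chain fatty acids. When mitochondria fail or amino acids run short, cells can switch on the integrated stress response, in which phosphorylation of the translation factor eIF2 slows protein synthesis while the transcription factor ATF4 is made. ATF4 then raises genes for amino acid synthesis, amino acid import and tRNA charging, and 2 of its targets, Fgf21 and Gdf15, are secreted hormones known as signs of mitochondrial disease.

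The shallowest library held 34320838 counts and the deepest 51743114, with 17571 to 18351 genes detected in each. Sampling noise was exceeded by the difference between libraries in all 37 same-genotype pairs. The batches held 9 libraries (4 knockout, 5 without) and 15 libraries (9 and 6). In Acadl Het / Acadvl Het replicate 1 the share of Rn45s, which encodes precursor ribosomal RNA, was 17.3% of counts against at most 0.558% elsewhere. Alb, a liver gene, exceeded 10 CPM (counts scaled to library size) in 6 libraries: all 3 of Acadl Het / Acadvl Het, 1 of Acadl Het / Acadvl KO and 2 of Acadl KO / Acadvl wt, with a maximum of 159 CPM. The 12 ventricular cardiomyocyte markers summed to between 79640 and 105300 CPM in the knockout libraries and between 82440 and 97980 CPM in the others, and all 12 were detected.

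The targeted genes were read next, since they check the labels. Acadvl (mm10, chr11:70010183-70015428) stood at 499, 734, 495 and 669 CPM in the libraries labelled Acadl Het / Acadvl KO, against 1550, 1743, 1638 and 1597 CPM in Acadl Het / Acadvl wt. The log2 difference was -1.45 ± 0.12 (± SE throughout unless SD is named; edgeR adjusted p = 9.69e-08), and no library of one group entered the range of the other. Acadl (mm10, chr1:66830839-66863309) went against its label. The 4 libraries labelled Acadl KO / Acadvl wt held 1923, 2100, 1856 and 1697 CPM, above all 4 of Acadl wt / Acadvl wt, at 1412, 1324, 1369 and 1325 CPM, a rise of 0.47 ± 0.07 (edgeR adjusted p = 1.82e-05). In Acadl KO / Acadvl Het it was also higher than in Acadl Het / Acadvl Het, by 0.31 ± 0.07 (adjusted p = 0.00113). Within batch 1 these rises of Acadl were 0.34 and 0.24. A genotype in each of those comparisons had a single library there, so no test is given. Counts over a whole gene do not show whether a transcript still carries a deleted part, so every direction below that involves the libraries labelled Acadl KO rests on the labels alone.

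Across 15804 genes tested, 4443 (28.1%) were higher and 4378 (27.7%) were lower in the 13 knockout libraries than in the 11 others, by edgeR's quasi-likelihood test at an adjusted p under 0.05. In 786 genes (4.97%) every knockout library lay above every other library, and in 567 (3.59%) every one lay below. Within batch 1 alone the counts were 1769 and 1476, and within batch 2 they were 4127 and 3865. With the first number of the sample title as a block, a number that the sources used here do not explain, they were 1407 and 1136.

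To find what the 3 knockout genotypes had in common, each was set against a control genotype of its own, so that no library served in more than 1 of the 3 comparisons. Acadl KO / Acadvl wt against Acadl wt / Acadvl wt called 3095 genes higher (19.6%) and 2779 lower (17.6%). The comparison of Acadl KO / Acadvl Het with Acadl Het / Acadvl Het, in which 1 Acadl allele differs, called 3173 higher (20.1%) and 3247 lower (20.5%). Acadl Het / Acadvl KO against Acadl Het / Acadvl wt called 2031 higher (12.9%) and 1822 lower (11.5%). A shared response of 1372 higher genes (8.68%) and 1014 lower genes (6.42%) was called the same way in all 3. Of the genes higher in the Acadvl KO comparison 67.6% were shared, as were 44.3% of those higher in the Acadl KO / Acadvl wt comparison and 43.2% in the Acadl KO / Acadvl Het comparison. For the lower genes these shares were 55.7%, 36.5% and 31.2%. In 146 shared genes (0.924%) the rise was at least 1 on the log2 scale in each comparison, and in 165 (1.04%) the fall was at least that large.

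The shared genes were chosen for a call in the same direction in all 3 comparisons, so likeness of their changes is in part set by that choice. These changes were moderate in size. Their median log2 change was 0.58, 0.57 and 0.46 for the higher genes in the order given above and -0.65, -0.64 and -0.59 for the lower genes, against medians of all genes tested of -0.02, -0.02 and 0.02. Higher shared genes were more abundant, with a median of 40.2 CPM against 17.5 CPM for the lower ones and 14.4 CPM for all genes tested. Over the 8971 genes that averaged 10 CPM or more, the log2 changes of Acadl KO / Acadvl wt and Acadl KO / Acadvl Het had a Pearson r of 0.85, those of Acadl KO / Acadvl wt and Acadl Het / Acadvl KO 0.81, and those of Acadl KO / Acadvl Het and Acadl Het / Acadvl KO 0.78. Over all 15804 genes these values were 0.28, 0.67 and 0.32. Genes of 1 library are not independent of each other, so no p is given. The shared genes were chosen on these same libraries, so their calls for any knockout against none within a batch are a description only: 1152 of the higher and 801 of the lower genes were called in batch 1. In batch 1 Acadl KO / Acadvl wt, Acadl Het / Acadvl KO and Acadl Het / Acadvl Het each had a single library. No shared response called anew there is therefore given.

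**Figure D1:**
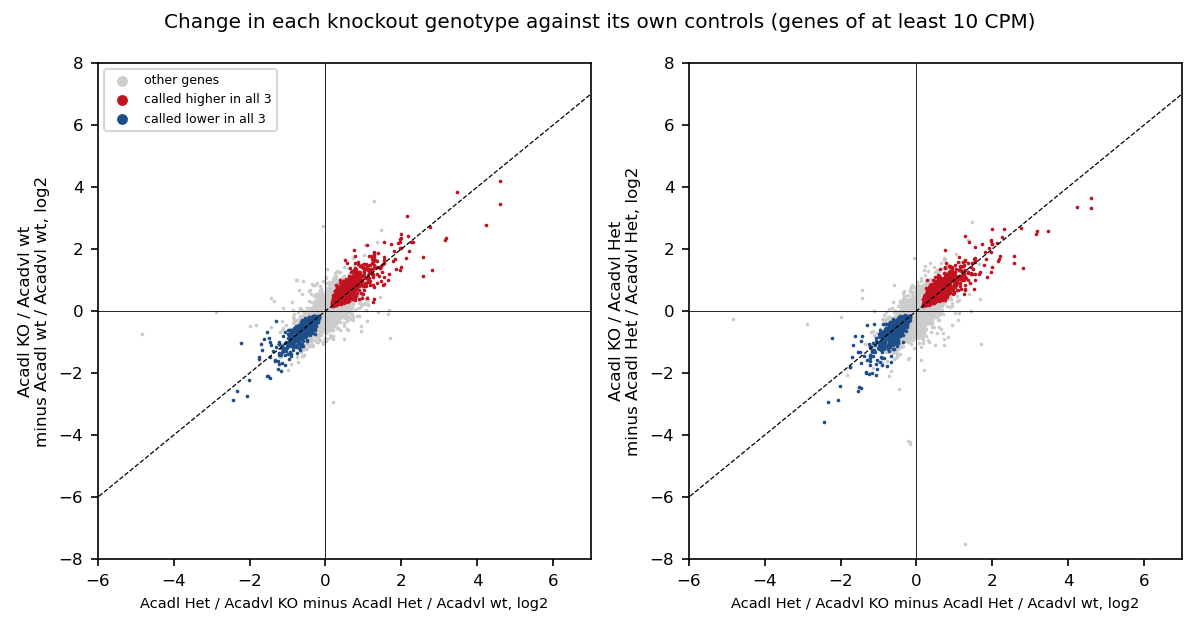
The log2 change of each gene of at least 10 CPM (8971 points) in Acadl KO / Acadvl wt (left, vertical axis) and Acadl KO / Acadvl Het (right, vertical axis) against that in Acadl Het / Acadvl KO (horizontal axis), each genotype against controls of its own. Genes called higher in all 3 comparisons are red (1214 plotted) and genes called lower are blue (634 plotted). Both groups lie along the dashed line of equal change, which their choice by direction in all 3 favours.

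Among the pathway lists, ATF4 and its targets had the largest median rise. Of 33 listed genes, 32 were higher for any knockout, against 28.1% of all genes, and 23 were in the shared response, against 8.68%. The list's median log2 change was 1.62 against -0.01 for all genes tested. Only Psph, which makes serine in its final step, was lower (-0.54 ± 0.09, not called within batch 1), and it was named after its value was seen. The list was written with the series title in view, which names this pathway, so its direction is not independent evidence. Atf4 itself ran from 144 to 456 CPM (median 305) in the knockout libraries and from 62.4 to 102 CPM (median 76.0) in the others, a rise of 1.98 ± 0.13 (edgeR adjusted p = 2.67e-11) with no overlap. Values of 1.95, 1.78 and 2.20 in the 3 matched comparisons were close to each other.

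The hormone genes Fgf21 and Gdf15 were among the 3 with the largest least change over the matched comparisons. The list of 40 secreted factors they belong to had 8 higher and 12 lower, against 28.1% and 27.7% of all genes. Fgf21, which encodes a hormone of fasting and mitochondrial stress, held 0.616 to 14.8 CPM (median 5.36) in the knockout libraries and 0.0246 to 0.321 CPM (median 0.0975) in the others. Its rise of 5.59 ± 0.62 (adjusted p = 6.58e-08) was also present within batch 1 (5.40) and batch 2 (5.82). Every knockout library lay above every other library, although the knockout libraries themselves spread widely. Gdf15, the hormone that curbs appetite through the hindbrain, ran from 9.90 to 61.3 CPM (median 39.7) against 1.46 to 2.59 CPM (median 1.77), a rise of 4.17 ± 0.36 (adjusted p = 2.08e-09). Trib3, a pseudokinase that ATF4 induces, stood at 15.1 to 174 CPM (median 77.2) against 3.88 to 7.59 CPM (median 5.13), a rise of 3.87 ± 0.36 (adjusted p = 9.03e-09).

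Other members of the ATF4 list were higher too. Chac1, which breaks down glutathione, rose by 2.69 ± 0.32, Sesn2, a leucine sensor that restrains mTORC1, by 2.67 ± 0.27, and the transcription factors Atf3 and Ddit3 by 2.24 ± 0.34 and 1.46 ± 0.16 (adjusted p of 7.20e-06 and 5e-08). Atf3 and Ddit3 are members of the list that were chosen for naming after their values were seen. Of 11 eIF2 kinases, ATF4 partners and subunits of the eIF2 phosphatase, 8 were higher and 2 lower for any knockout, against 28.1% and 27.7% of all genes. In the shared response were 4 of them, all higher, and the list median was 0.28 against -0.01 for all genes tested. Ppp1r15a and Ppp1r15b, the 2 regulatory subunits that return eIF2 to its active form, rose by 1.24 ± 0.11 and 0.67 ± 0.06.

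Upstream sequences are shown for the named rising genes that hold the letters TGATGNAA, the C/EBP-ATF response element that ATF4 is known to bind, since these genes rose together. Of 59 named rising shared genes 48 had an entry among the RefSeq promoters searched (GRCm38.p6, the mm10 assembly), and 7 held the letters on either strand within 250 bases upstream of a start. Promoters on a single autosome were left out beforehand, here and in the shares below, so its genes count as without an entry. The 6 with the largest least change are printed 5′ to 3′ on the gene's strand, with the match in capitals, and TTGCATCA is the element read on the other strand.
Fgf21, chr7:45615491-45615740, minus strand: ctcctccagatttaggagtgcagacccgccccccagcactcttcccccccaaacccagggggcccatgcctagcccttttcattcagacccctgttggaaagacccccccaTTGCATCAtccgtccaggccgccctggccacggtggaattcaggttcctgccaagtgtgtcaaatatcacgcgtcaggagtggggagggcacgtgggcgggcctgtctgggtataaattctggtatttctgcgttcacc
Chac1, chr2:119350992-119351241, plus strand: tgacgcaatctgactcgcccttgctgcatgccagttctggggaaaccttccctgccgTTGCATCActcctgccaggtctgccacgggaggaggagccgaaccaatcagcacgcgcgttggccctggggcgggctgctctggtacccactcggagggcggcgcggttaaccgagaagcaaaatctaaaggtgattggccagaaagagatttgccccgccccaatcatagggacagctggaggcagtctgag
Asns, chr6:7693210-7693459, minus strand: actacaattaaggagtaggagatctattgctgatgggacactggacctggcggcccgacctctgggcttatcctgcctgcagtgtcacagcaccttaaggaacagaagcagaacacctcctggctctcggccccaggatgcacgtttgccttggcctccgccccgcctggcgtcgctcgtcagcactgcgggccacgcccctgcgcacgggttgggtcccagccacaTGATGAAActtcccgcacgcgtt
Pycr1, chr11:120643749-120643998, minus strand: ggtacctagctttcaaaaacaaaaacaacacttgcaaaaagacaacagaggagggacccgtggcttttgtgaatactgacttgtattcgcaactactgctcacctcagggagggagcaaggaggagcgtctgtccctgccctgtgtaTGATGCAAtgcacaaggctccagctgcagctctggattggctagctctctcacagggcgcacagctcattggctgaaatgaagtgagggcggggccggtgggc
Herpud1, chr8:94386179-94386428, plus strand: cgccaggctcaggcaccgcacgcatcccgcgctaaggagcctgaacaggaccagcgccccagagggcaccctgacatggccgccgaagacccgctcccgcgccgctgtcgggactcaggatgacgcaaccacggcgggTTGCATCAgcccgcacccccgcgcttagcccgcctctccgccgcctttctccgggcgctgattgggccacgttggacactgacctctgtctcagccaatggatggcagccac
Aars, chr8:111033592-111033841, plus strand: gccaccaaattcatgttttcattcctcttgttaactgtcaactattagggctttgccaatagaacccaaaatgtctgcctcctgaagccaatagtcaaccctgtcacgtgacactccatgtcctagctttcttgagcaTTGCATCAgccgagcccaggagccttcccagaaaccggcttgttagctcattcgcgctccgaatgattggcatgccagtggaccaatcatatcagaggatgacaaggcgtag

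The match began 139 bases upstream of the start in Fgf21, 193 in Chac1, 23 in Asns, 103 in Pycr1 and 112 in both Herpud1 and Aars. In the same window the letters were found in 8 of 104 genes (7.69%) of the higher shared genes with a rise of at least 1 in each comparison, in 6 of 121 (4.96%) of the lower genes with a fall of that size and in 291 of 11668 genes tested (2.49%). Over all 1069 higher shared genes with an entry the share was 2.99%, near that of all genes tested. A match is a run of letters and was not tested for binding.

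Enzymes that make amino acids were listed by pathway, and the lists held members of both directions. Asns, which makes asparagine, ran from 8.74 to 79.3 CPM (median 31.5) in the knockout libraries and from 1.22 to 7.06 CPM (median 4.39) in the others, a rise of 3.26 ± 0.38 (adjusted p = 2.21e-07) with no overlap. Within the libraries without a knockout it stood at 1.71 ± 0.45 CPM in Acadl wt / Acadvl wt, 5.52 ± 1.12 in Acadl Het / Acadvl wt and 4.70 ± 1.80 in Acadl Het / Acadvl Het (mean ± SD, n = 4, 4 and 3), a difference that did not pass the test (adjusted p = 0.228). Mthfd2, the mitochondrial folate enzyme that is usually low in adult tissue, held 4.88 to 80.9 CPM (median 32.3) against 2.28 to 3.59 CPM (median 2.73), a rise of 3.57 ± 0.30 (adjusted p = 1.52e-09). Of 18 serine, glycine and one-carbon genes 9 were higher and 6 lower, against 28.1% and 27.7% of all genes, with 6 and 2 in the shared response and a median log2 change of 0.15. Psat1 and Phgdh, which make serine, rose by 1.85 ± 0.26 and 1.67 ± 0.28, but for both some knockout libraries lay within the range of the others. Of 15 proline, asparagine and transaminase genes 6 were higher and 3 lower, numbers not far from those shares of all genes, with 5 and 1 shared and a median of 0.07, and Pycr1 and Aldh18a1, which make proline, rose by 2.23 ± 0.24 and 2.08 ± 0.22.

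**Figure D2:**
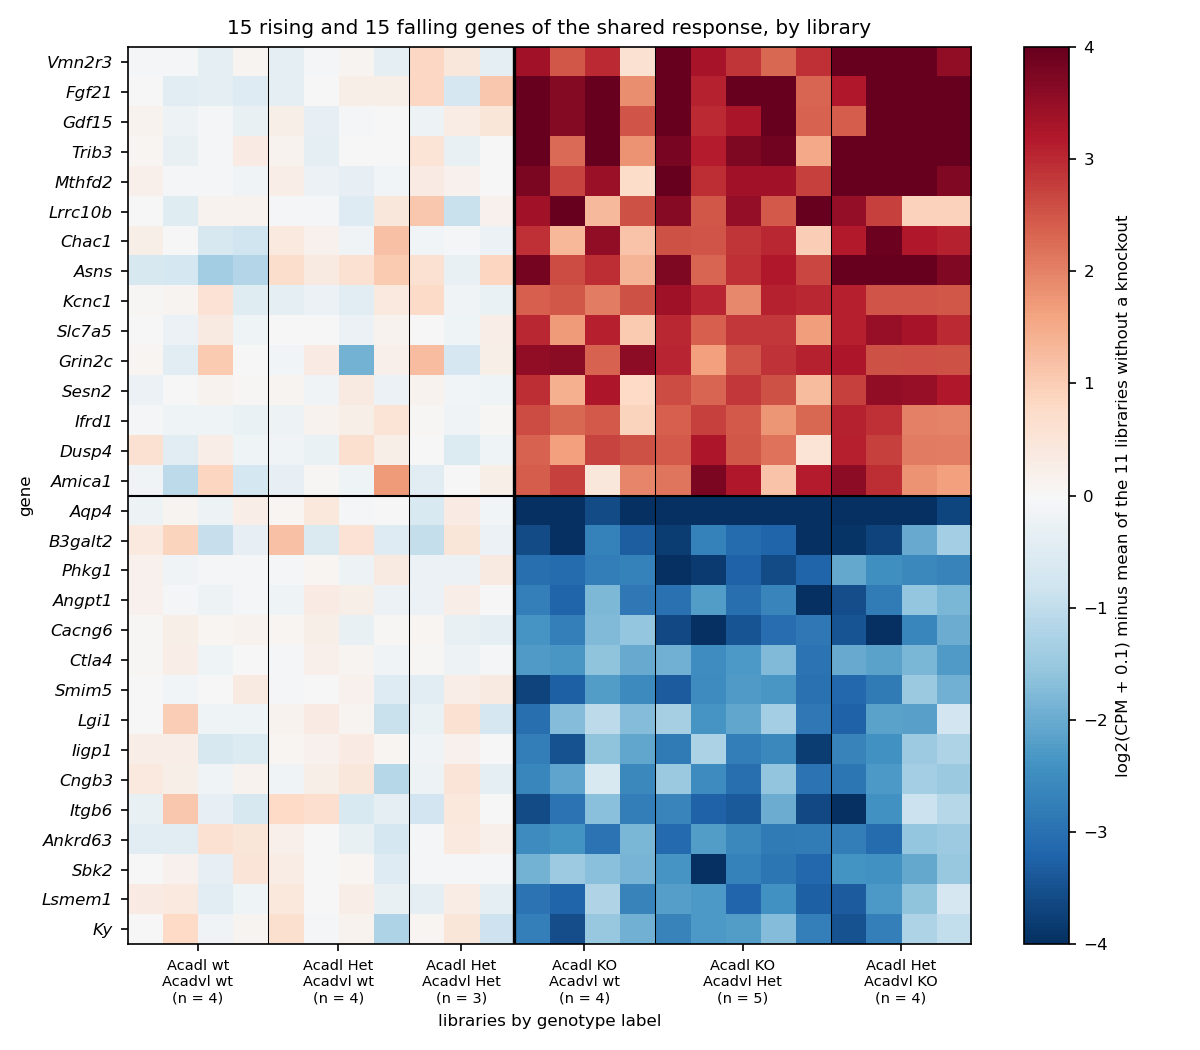
Log2(CPM + 0.1) minus the mean of the 11 libraries without a knockout, for the 15 rising (top) and 15 falling (bottom) genes of the shared response with the largest least change, with 1 column per library grouped by genotype label (n = 4, 4, 3, 4, 5 and 4) and colours that end at -4 and 4. The 3 knockout genotypes to the right of the thick line share the same direction in each row, which the choice of these genes largely fixed. Single libraries such as the last of Acadl KO / Acadvl wt are paler.

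Genes for tRNA charging and for amino acid import were counted next. Of 23 cytosolic aminoacyl-tRNA synthetases, which join each amino acid to its tRNA, 19 were higher and 1 lower for any knockout, and 15 were in the shared response, with a median log2 change of 0.57. Aars, for alanine, stood at 174 to 269 CPM (median 221) against 69.8 to 91.7 CPM (median 81.8), a rise of 1.43 ± 0.07 (adjusted p = 7.32e-14). Its change was nearly equal in the 3 matched comparisons, at 1.41, 1.43 and 1.44. Cars and Yars rose by 1.37 ± 0.10 and 1.34 ± 0.08. Of 17 mitochondrial synthetases 6 were higher and 5 lower, near the 28.1% and 27.7% of all genes, with a median of 0.08, and the 2 shared ones, Rars2 and Yars2, rose by 0.44 ± 0.05 and 0.32 ± 0.05. Among 23 amino acid transporters 15 were higher and 3 lower, with 7 shared and a median of 0.53. Slc7a5, the light chain of the leucine importer, ran from 17.8 to 96.3 CPM (median 67.4) against 7.25 to 11.02 CPM (median 8.50), a rise of 2.73 ± 0.22 (adjusted p = 8.70e-10). Slc1a4 and the glycine transporter Slc6a9 rose by 2.35 ± 0.29 and 1.93 ± 0.30, and Slc6a9 was not called within batch 1.

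Most listed genes of ribosome assembly in the nucleolus rose. Of 25 genes 23 were higher and none was lower, against 28.1% and 27.7% of all genes. In the shared response were 22, against 8.68% of all genes shared and higher, and the median log2 change was 0.62. This list was written with earlier results of these data known. Rrp12, needed to export both ribosomal subunits, stood at 105 to 218 CPM (median 172) against 46.1 to 78.2 CPM (median 60.2), a rise of 1.51 ± 0.11 (adjusted p = 1.38e-10). Nop2 and Nhp2, which modify ribosomal RNA or guide its modification, rose by 0.96 ± 0.07 and 0.95 ± 0.08. Among 23 translation factors 17 were higher and 2 lower, against the same 28.1% and 27.7% of all genes, with 8 and 1 shared. Eif4a1 and Eif3a, which act in initiation, rose by 0.89 ± 0.07 and 0.84 ± 0.07, while Eif4ebp1, an inhibitor of initiation, rose by 0.75 ± 0.11 and was not called within batch 1. Mtor, the kinase at the centre of growth control, and Myc, which drives ribosome assembly, were chosen after their values were seen. Mtor ran from 207 to 363 CPM against 96.6 to 121 CPM, a rise of 1.36 ± 0.07 (adjusted p = 1.14e-12), and Myc from 21.2 to 78.7 CPM against 9.21 to 30.0 CPM, a rise of 1.75 ± 0.23 (adjusted p = 7.97e-07). The groups overlapped for Myc and lay apart for Mtor.

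**Figure D3:**
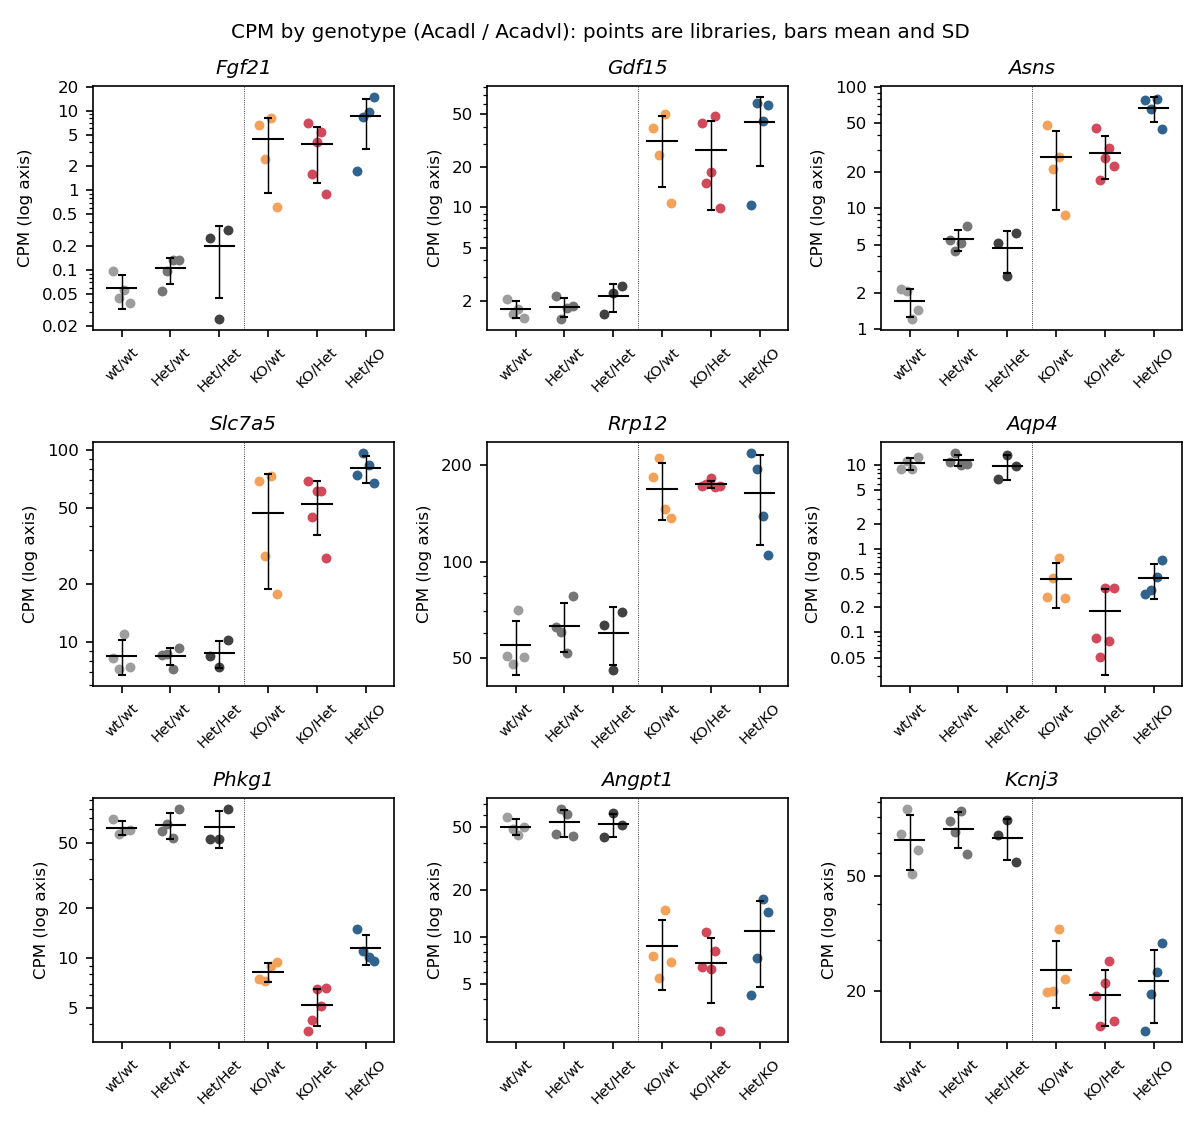
CPM of 9 genes on a log axis in each library (points), with the mean (line) and SD (bars) of each genotype, given as Acadl / Acadvl, and a dotted line between genotypes without and with a knockout. The 9 genes were picked by hand from the shared response. In all 9 the 13 knockout libraries lie apart from the 11 others, as they do above in 4.97% and below in 3.59% of all genes tested.

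Of 22 antioxidant genes of the NRF2 list 16 were higher and 2 lower, where 28.1% of all genes were higher and 27.7% lower, with 5 and 1 shared and a median log2 change of 0.68. Srxn1, which repairs oxidised peroxiredoxin, held 118 to 393 CPM (median 155) against 31.4 to 54.5 CPM (median 42.2), a rise of 2.07 ± 0.21 (adjusted p = 1.83e-08). Its 2 highest libraries, at 393 and 362 CPM, belonged to Acadl KO / Acadvl wt and Acadl Het / Acadvl KO. Osgin1 and Txnrd1 rose by 1.96 ± 0.13 and 1.20 ± 0.12. Mitochondrial chaperones and proteases had 8 higher and 2 lower of 15 (median 0.15), and the 7 shared genes, all higher, included Grpel2 (1.36 ± 0.09), Afg3l2 (0.68 ± 0.06) and Hspe1 (0.63 ± 0.05). Of 21 chaperones of the endoplasmic reticulum 4 were higher and 10 lower (median -0.13), with 3 of each shared: Herpud1 and Dnajb9 rose by 1.47 ± 0.13 and 0.96 ± 0.10, and Pdia4 fell by 0.77 ± 0.13 and was not called within batch 1.

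Genes of fat handling are given against 28.1% of all genes called higher and 27.7% called lower. Of 26 targets of PPAR-alpha, the receptor that senses fatty acids, 17 were higher and 2 lower, with a median log2 change of 0.45, and all 10 shared ones were higher. Plin5, which ties lipid droplets to mitochondria, ran from 393 to 961 CPM (median 656) against 230 to 355 CPM (median 265), a rise of 1.26 ± 0.11 (adjusted p = 9.99e-10). The 26 genes for lipid droplets, uptake and lipolysis had 17 higher and 1 lower (median 0.34), with 5 shared, among them Plin2 (1.06 ± 0.15) and Fabp3 (0.58 ± 0.07), the fatty acid binding protein of heart muscle. Ehhadh, a peroxisomal enzyme, and Acot2, a mitochondrial thioesterase that frees fatty acids from CoA, rose by 1.27 ± 0.14 and 1.15 ± 0.09. The related Acot3 and Acot4 rose by 1.36 ± 0.19 and 1.00 ± 0.12, and close copies in this family can trade reads. With the first number of the title as a block Plin2 (0.849) and Ehhadh (0.853) were not called (edgeR adjusted p of 0.0581 and 0.0552). In the mitochondrial oxidation pathway itself 7 of 26 genes were higher and 9 lower, near the shares of all genes, with 2 and 4 shared and a median of -0.09. Cpt1b, the gate for long-chain fatty acids, rose by 0.51 ± 0.06, and Acad12 and Acad10, of the acyl-CoA dehydrogenase family, fell by 0.69 ± 0.06 and 0.50 ± 0.07.

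Genes of sugar and other fuels are also set beside the 28.1% of all genes called higher and 27.7% called lower. Glycolysis had 14 higher and 3 lower of 25 (median 0.18), with 7 and 2 shared. Pfkfb2, the cardiac form of the enzyme that speeds glycolysis, rose by 1.24 ± 0.13 while Pfkfb1 fell by 1.29 ± 0.16, and Pgam1 rose by 0.78 ± 0.09. The 21 glycogen genes had 7 in each direction, close to those shares, and the 5 in the shared response included the largest fall of the list. Phkg1, which encodes the catalytic part of the muscle kinase that starts glycogen breakdown, stood at 3.64 to 14.9 CPM (median 7.46) against 52.7 to 79.7 CPM (median 58.6), a fall of 2.94 ± 0.17 (adjusted p = 6.75e-12). Ppp1r3d fell by 1.10 ± 0.11, and Ugp2, which makes the sugar donor for glycogen, rose by 1.19 ± 0.10. Of the 14 genes that control pyruvate dehydrogenase 7 were higher and 4 lower, and the kinases Pdk3 and Pdk1 and the phosphatase Pdp1 fell by 0.72 ± 0.13, 0.60 ± 0.05 and 0.65 ± 0.12, the last not called within batch 1. Breakdown of branched-chain amino acids had 12 lower and 1 higher of 22, with 5 shared falls that included Ppm1k (-0.90 ± 0.09), which activates the pathway, Acadsb (-0.32 ± 0.05) and Mut (-0.31 ± 0.05). Oxidative phosphorylation had 1 higher and 3 lower of 30 nuclear-encoded genes, none shared, and the citric acid cycle had 6 higher and 5 lower of 21, again close to those shares, with Sdhc (-0.28 ± 0.04) the only shared one.

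**Figure D4:**
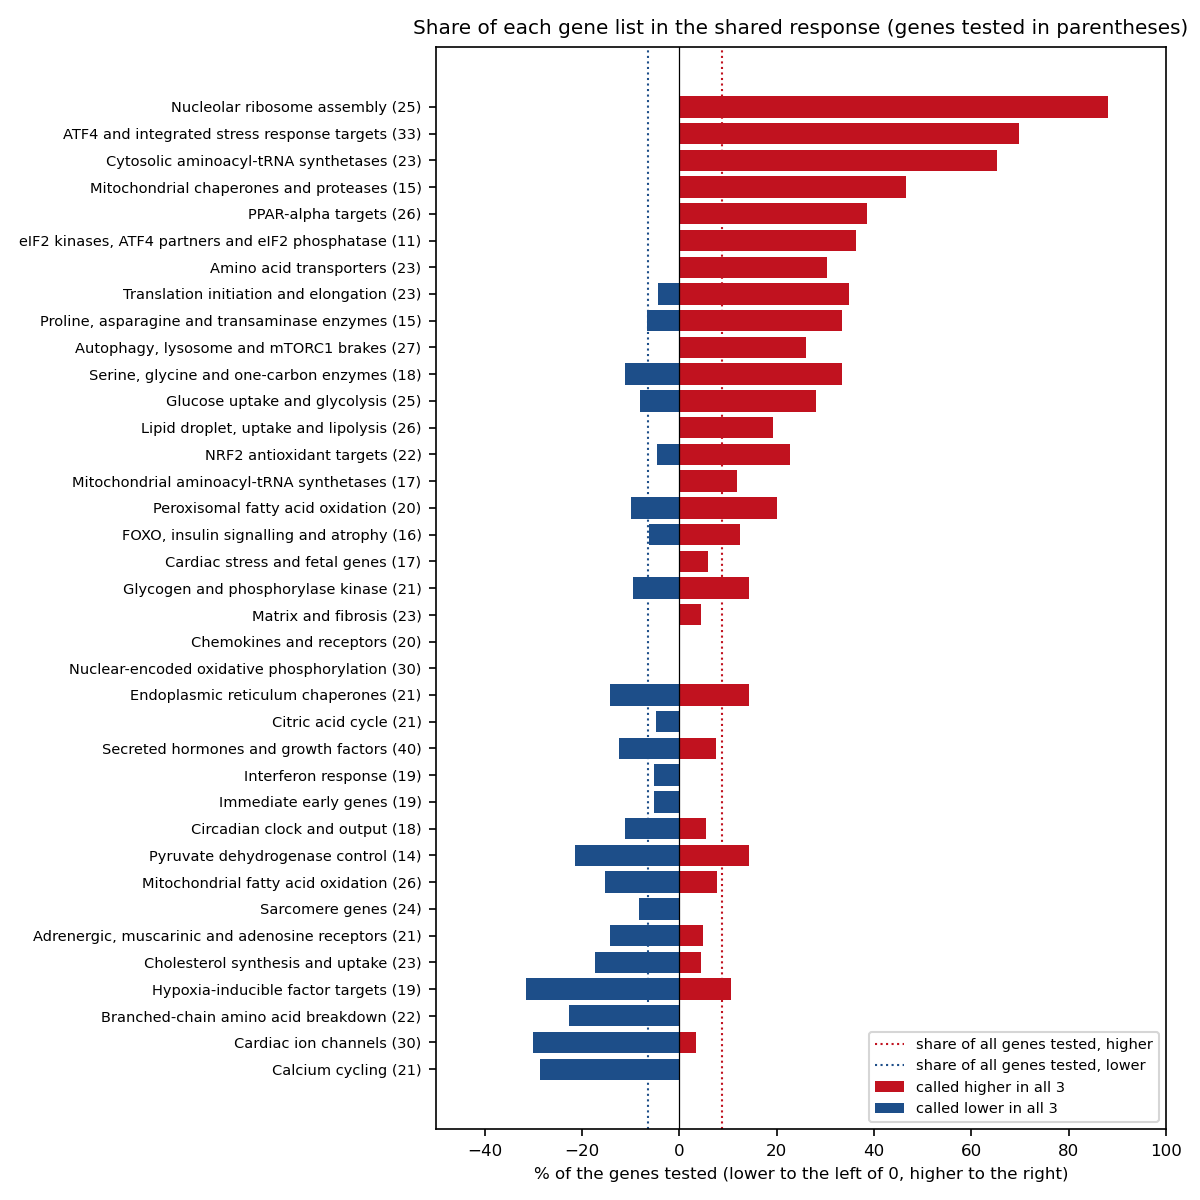
Percentage of the tested genes of each pathway list called higher (red, right of 0) or lower (blue, left of 0) in all 3 matched comparisons, with the number tested in parentheses. Dotted lines mark the shares of all genes tested, 8.68% higher and 6.42% lower. Nucleolar ribosome assembly (22 of 25) and ATF4 targets (23 of 33) reach farthest to the right, and hypoxia-inducible factor targets (6 of 19) and cardiac ion channels (9 of 30) farthest to the left.

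Against the same 28.1% higher and 27.7% lower of all genes, growth and turnover genes were as follows. Of 27 genes for autophagy, lysosomes and the brakes on mTORC1, 15 were higher and 3 lower (median 0.16), and all 7 shared ones were higher, with Fnip2 at 1.32 ± 0.11 and Atp6v1h, a subunit of the lysosomal proton pump, at 1.20 ± 0.12. Cdkn1a, the cell cycle inhibitor p21, rose by 1.61 ± 0.20 and Foxo4 fell by 0.35 ± 0.05, within a list of 16 FOXO and atrophy genes that had 9 higher and 1 lower (median 0.32). The 23 cholesterol genes had 4 higher and 11 lower (median -0.26), with 1 and 4 shared, and the falls included Dhcr7 (-0.65 ± 0.10, not called within batch 1), Idi1 (-0.53 ± 0.09) and Fdft1 (-0.49 ± 0.07).

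The rising genes at the top of the shared response also held genes outside these pathways. Ifrd1, a regulator of muscle gene expression, rose by 2.29 ± 0.17, Dusp4, a phosphatase that switches off MAP kinases, by 2.36 ± 0.23, and Kcnc1, a voltage-gated potassium channel, by 2.78 ± 0.19, while Grin2c, a glutamate receptor subunit, rose by 2.89 ± 0.28. Lrrc10b and Amica1 rose by 3.43 ± 0.48 and 2.53 ± 0.41, and Amica1 was not called within batch 1. Vmn2r3, of the vomeronasal receptor family, had the largest least change: it stood at 0.0947 to 8.72 CPM (median 1.16) against 0 to 0.127 CPM (median 0.0244). Reads of its many relatives may be assigned to it, so that value is uncertain.

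Among falling genes Aqp4, the water channel, had the largest shared change. It held 0.0504 to 0.782 CPM (median 0.321) in the knockout libraries and 6.78 to 14.0 CPM (median 10.5) in the others, a fall of 4.94 ± 0.20 (adjusted p = 1.34e-14). The log2 changes in the 3 matched comparisons were -4.59, -5.78 and -4.66. Angpt1, which steadies blood vessels through the receptor Tie2, ran from 2.53 to 17.6 CPM (median 7.40) against 43.7 to 65.4 CPM (median 50.1), a fall of 2.60 ± 0.22 (adjusted p = 1.31e-09). Both genes left a wide gap between the groups.

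Other falls near the top were B3galt2 (-3.41 ± 0.35), Cacng6 (-2.94 ± 0.22), a calcium channel subunit, Smim5 (-2.58 ± 0.18), Ankrd63 (-2.55 ± 0.21), Itgb6 (-2.52 ± 0.33), an integrin subunit, and Sbk2 (-2.30 ± 0.19). Lsmem1, Ky, a protein of the muscle Z-disc, Iigp1, an interferon-induced GTPase, Ctla4, an immune checkpoint receptor, Lgi1 and Cngb3 fell by 2.23 ± 0.26, 2.22 ± 0.27, 2.22 ± 0.25, 2.21 ± 0.10, 2.12 ± 0.26 and 2.12 ± 0.24. Mstn, the brake on muscle growth, fell by 2.97 ± 0.37 from a low level, at 0.304 to 1.32 CPM without a knockout and 0 to 0.251 CPM with one. Of 40 secreted hormones and growth factors 8 were higher and 12 lower, against 28.1% and 27.7% of all genes, with 3 and 5 shared.

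Genes of excitation, calcium handling and contraction are set beside the 27.7% of all genes called lower and 28.1% called higher. Of 30 cardiac ion channel genes 14 were lower and 6 higher, with 9 and 1 shared and a median log2 change of -0.29. Kcnj3 and Kcnj5, the 2 subunits of the potassium channel through which acetylcholine slows the heart, fell together: Kcnj3 stood at 14.6 to 32.8 CPM against 50.7 to 84.95 CPM, a fall of 1.69 ± 0.12 (adjusted p = 8.11e-11), and Kcnj5 fell by 1.71 ± 0.18. Chrm2, the muscarinic receptor that opens this channel, held 11.5 to 29.5 CPM (median 15.4) against 42.3 to 61.1 CPM (median 46.5), a fall of 1.37 ± 0.13 (adjusted p = 7.97e-09). For Kcnj3, Kcnj5 and Chrm2 every knockout library lay below every other library. Gja1, which encodes the main gap junction protein of the ventricle and was chosen after its values were seen, ran from 70.7 to 311 CPM (median 134) against 301 to 463 CPM (median 383), a fall of 1.30 ± 0.20 (adjusted p = 7.28e-06) with a narrow overlap.

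Calcium cycling had 12 lower and 3 higher of 21 genes (median -0.21), and all 6 shared ones were lower. Casq1, a calcium store protein, fell by 1.62 ± 0.15, and the calcium-dependent kinases Camk2a and Camk2b by 1.22 ± 0.08 and 0.95 ± 0.12. Receptors for adrenaline, acetylcholine and adenosine had 12 lower and 1 higher of 21, with Adra1b (-1.35 ± 0.09) and Adra1a (-0.66 ± 0.12) among the 3 shared falls. Of 24 sarcomere genes 8 were lower, near the 27.7% of all genes, and 3 higher. The 2 shared falls, near the 6.42% of all genes, were Mylk3 (-0.81 ± 0.06), the kinase of ventricular myosin light chain, and Tpm1 (-0.49 ± 0.04), tropomyosin. Pln, the brake on the calcium pump, fell by 0.35 ± 0.06.

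Genes listed as targets of the hypoxia-inducible factor had 6 lower and 5 higher of 19 for any knockout, near the 27.7% and 28.1% of all genes. In the shared response 6 were lower and 2 higher, against 6.42% and 8.68% of all genes. Ankrd37, Egln3, the oxygen sensor that marks the factor for breakdown, and Mxi1 fell by 2.56 ± 0.25, 1.69 ± 0.13 and 0.82 ± 0.08. Egln3 stood at 9.39 to 23.6 CPM (median 12.1) against 38.9 to 57.6 CPM (median 45.5), with no overlap. The 18 clock genes had 8 higher and 5 lower, against 28.1% and 27.7% of all genes. Hlf, a clock output factor, ran from 4.30 to 9.76 CPM (median 5.89) against 11.6 to 26.0 CPM (median 19.8), a fall of 1.56 ± 0.15 (adjusted p = 6.62e-09). Bhlhe40 fell by 0.80 ± 0.11 and Ciart rose by 1.41 ± 0.19. The sources used here give no time of day for tissue collection. Ier3, the 1 shared gene among 19 immediate early genes, fell by 1.25 ± 0.15.

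Some lists had few or no members in the shared response. Of 19 listed interferon genes 14 were lower and none higher, against 27.7% and 28.1% of all genes. Of that list only Irf9 (-0.69 ± 0.12, not called within batch 1) was lower in all 3 comparisons, while Iigp1, a shared fall named above, is outside it. Chemokines and their receptors had 7 lower of 20, near the share of all genes, and none shared. Among 17 cardiac stress and fetal genes 8 were higher and 2 lower, with Gdf15 the only shared one. Matrix genes had 8 higher, near the share of all genes, and 2 lower of 23, with Col4a2 (0.52 ± 0.09, not called within batch 1) the only shared one.

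Markers of other cells in the heart were counted beside these groups, where 28.1% of all genes were called higher and 27.7% lower. For fibroblasts 1 of 12 markers was higher and 1 lower for any knockout, for endothelium 2 and 2 of 12, for smooth muscle and pericytes 1 and 3 of 12, for macrophages and other leukocytes 3 and 0 of 14, for lymphocytes 1 and 1 of 7, for erythroid cells 0 and 0 of 6, for skeletal muscle 1 and 3 of 9 and for the epicardium 1 and 0 of 9, and none of these was in the shared response. Summed endothelial markers ran from 1733 to 2139 CPM in the knockout libraries and from 1618 to 2063 CPM in the others. Of 12 ventricular markers 5 were lower and 1 higher. No marker of any list was at 0 in all libraries.

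Markers of atria, nerves and fat are set beside the same 28.1% of all genes called higher and 27.7% called lower. Their part in the results was not tested. Atrial markers had 6 lower and none higher of 11, and summed to 726 to 2802 CPM (median 1074) in the knockout libraries against 1107 to 1579 CPM (median 1245) in the others. The shared falls of that list were Kcnj3, Kcnj5 and Stard10 (-0.64 ± 0.11), of which the channel genes are named above. Nerve and Schwann cell markers had 5 lower and none higher of 8, with Dbh (-2.64 ± 0.30), which makes noradrenaline in sympathetic nerves, and Sox10 (-1.07 ± 0.17) shared, and summed to 37.2 to 62.6 CPM (median 49.8) against 45.9 to 56.8 CPM (median 52.1). The adipocyte list did not rise as a whole, with 1 higher of 6, none in the shared response and a median log2 change of -0.08. The higher one, Fabp4, which endothelium also makes, ran from 750 to 2350 CPM (median 1384) against 636 to 865 CPM (median 732), a rise of 0.91 ± 0.15 (adjusted p = 1.90e-05). With the first number of the title as a block the change of Fabp4 was 0.42 and not called (adjusted p = 0.332). In bulk tissue fewer cells of a type and less RNA per cell cannot be told apart.

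The hepatocyte list changed direction between comparisons, as Alb did between libraries. Its median log2 change was 2.94 for Acadl KO / Acadvl wt, -6.28 for Acadl KO / Acadvl Het and 0.98 for Acadl Het / Acadvl KO, and none of its 22 genes was in the shared response. In all, 51 genes were called in opposite directions in 2 matched comparisons. The 5 with the widest spread, Mup3, Apoa4, Igfbp1, Fabp1 and Kng1, are liver genes, with log2 changes of 3.44, 5.33, 4.996, 4.29 and 4.05 for Acadl KO / Acadvl wt and -8.25, -6.32, -6.39, -6.45 and -6.47 for Acadl KO / Acadvl Het. With limma voom the former were 0.97, 0.79, 1.91, 1.71 and 2.19, none called (adjusted p from 0.361 to 0.801), and Mup3 was not called with DESeq2 either (adjusted p = 0.0579). Without the 3 knockout libraries above 10 CPM of Alb they turned negative in all 5. The shared response then held 963 higher and 727 lower genes, and 919 and 706 without all 6 libraries above that level, with Acadl Het / Acadvl wt as the control of 2 genotypes. Both omissions were chosen after the data were seen.

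Whether the size of the response differed between knockout genotypes was tested gene by gene. A test of any difference among the 3 matched changes called 155 genes (0.981%) at an adjusted p under 0.05, and 2187 genes had an unadjusted p under 0.05. Only 9 of the 2386 shared genes were among the 155. Within batch 2 alone 2 genes were called, and for batch 1 no count is given because some genotypes had a single library there. Adra1a was 1 of the 9 shared genes: its fall was larger in Acadl Het / Acadvl KO (-1.31 ± 0.13) than in Acadl KO / Acadvl wt (-0.32 ± 0.12) and Acadl KO / Acadvl Het (-0.46 ± 0.13), with an adjusted p of 0.0131 for the difference.

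A direct contrast of the mean of the 2 labelled Acadl KO genotypes with Acadl Het / Acadvl KO called 676 genes higher (4.28%) and 1122 lower (7.10%). It set levels in knockout libraries against each other without their controls, so it does not measure the size of a change. Several ATF4 targets rose in all knockout genotypes but stood higher in Acadl Het / Acadvl KO. Phgdh, Asns and Psat1 differed by -1.36 ± 0.21, -1.27 ± 0.28 and -1.16 ± 0.23 (adjusted p of 0.000559, 0.00901 and 0.00523), where negative means lower in the labelled Acadl KO. For Asns the mean was 67.0 ± 15.7 CPM (n = 4) in Acadl Het / Acadvl KO, against 26.3 ± 16.7 (n = 4) in Acadl KO / Acadvl wt and 28.5 ± 11.01 (n = 5) in Acadl KO / Acadvl Het. Slc6a9, Mthfd2, Pycr1 and Aldh18a1 differed in the same direction, by -1.19, -1.07, -0.90 and -0.90, and all 4 lost their call without Acadl Het / Acadvl KO replicate 4. Fgf21 (-1.09 ± 0.47) and Gdf15 (-0.59 ± 0.41) were not called by this contrast (adjusted p of 0.125 and 0.350). None of the ATF4 targets named here was called for a difference among the matched changes. For Asns these were 3.83 in Acadl KO / Acadvl wt, 2.59 in Acadl KO / Acadvl Het and 3.465 in Acadl Het / Acadvl KO (edgeR adjusted p = 0.474 for the difference).

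Phkg1, Egln3 and Chrm2, which fell in all knockout genotypes, were not called for a difference among the matched changes. In the contrast of knockouts their levels differed by -0.82 ± 0.15, -0.74 ± 0.12 and -0.74 ± 0.12 (edgeR adjusted p of 0.00315, 0.000847 and 0.00102), lower in the labelled Acadl KO. Fabp4 was higher there by 0.81 ± 0.16 (adjusted p = 0.00456) and rose against its own controls in Acadl KO / Acadvl wt (1.11 ± 0.18) and Acadl KO / Acadvl Het (1.15 ± 0.20), while its change in Acadl Het / Acadvl KO was 0.23 ± 0.18. Fabp3 differed by 0.33 ± 0.07. Without Acadl Het / Acadvl KO replicate 4 the contrast called 157 genes higher and 390 lower, and within batch 2 it called 32 and 113. In batch 1 Acadl KO / Acadvl wt and Acadl Het / Acadvl KO had a single library each, so no count is given. Of 13 named genes called by this contrast 10 were not called within batch 2, and all kept their direction in both batches.

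**Figure D5:**
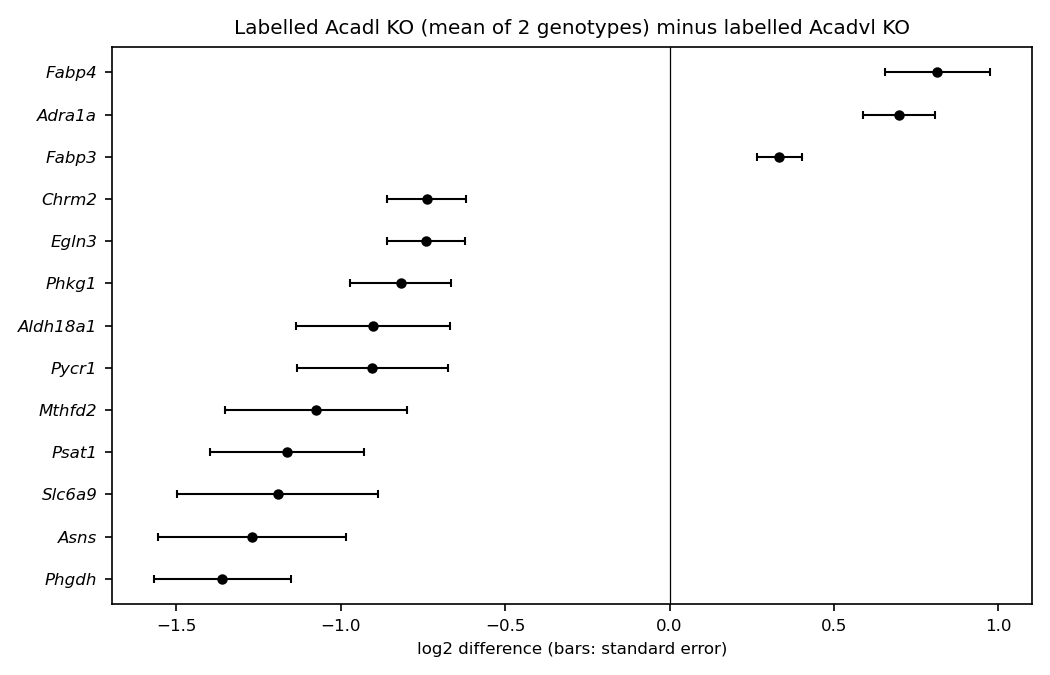
Log2 difference (points) and standard error (bars) between the mean of the 2 labelled Acadl KO genotypes and Acadl Het / Acadvl KO for 13 named genes. Amino acid genes and Phkg1, Egln3 and Chrm2 lie left of 0, and Fabp3, Adra1a and Fabp4 lie right of 0.

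Genes near the targeted loci were counted apart. Within 10 Mb of Acadl 9 of 123 genes tested were higher and 6 lower in the shared response, 12.2% with both directions together. Within 10 Mb of Acadvl these were 32 and 16 of 324, 14.8% together. Over all 15804 genes 8.68% were higher and 6.42% lower, 2386 genes together. Apart from the targeted genes, 3 genes near Acadl differed among the matched comparisons, which is 9.38% of the genes within 5 Mb, 2.44% within 10 Mb and 1.49% within 20 Mb, and for Acadvl these shares were 2.44%, 1.85% and 1.59%, against 0.981% of all genes.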

How the data were processed

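24 heart libraries of male mice were made by polyA RNA sequencing with single-end Illumina reads, per the labels' protocols. The deposited values are read counts per gene that the authors made by counting reads over exons with featureCounts, at version 1.5.2 per the file headers and 1.5.3 per the submitters' processing notes, which also name STAR 2.5.1b and mm10. Counting ignored strand and counted a read once for every gene it overlapped, per the file headers, so overlapping and antisense genes can share reads.

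Of 24421 genes 15804 passed edgeR's filterByExpr over the 6 genotypes. Counts were TMM-scaled and tested with edgeR 4.0.16 (R 4.3.3) quasi-likelihood models with RNA isolation batch as covariate: 1 model of any knockout against none, and 1 model of 6 genotypes for the matched comparisons. P-values were Benjamini-Hochberg adjusted over all genes tested and called under 0.05. Limma 3.58.1, DESeq2 1.42.0, other scaling, filters, batches, a block on the title's first number and leaving out each library or genotype were tried. Scripts were tested on simulated data. Libraries were grouped by genotype label, and replicate numbers follow accession order.

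Genes were named by rule: Acadl and Acadvl, the 15 rising and 15 falling shared genes with the largest least change over the 3 comparisons and a mean of at least 1 CPM, up to 3 shared genes of each list with the largest change (or the most abundant member), and the 5 genes with opposite calls and the widest spread. Mtor, Myc, Gja1, Atf3, Ddit3 and Psph were added after their values were seen. The members, lists and rules were chosen with earlier results of these data known.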

Additional observations from a re-analysis of the deposited data

Results flagged for a closer look

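Within genotypes of 4 or 5 libraries, 7 of 115 sets of values held 1 library that stood apart from the rest by Dixon's test at the 95% level, which chance alone gives in about 1 in 20. Atf4 stood at 79.11 CPM in Acadl wt / Acadvl wt replicate 1, and the next library held 66.36 CPM. Rrp12 reached 70.74 CPM in Acadl wt / Acadvl wt replicate 3, with 51.02 CPM next. Acadl KO / Acadvl wt replicate 3 was highest of its genotype in 2 falling genes, Chrm2 at 19.22 CPM (next 14.44) and Kcnj3 at 32.84 CPM (next 22.11). Chrm2 was also high in Acadl Het / Acadvl wt replicate 2, at 61.09 CPM (next 46.66). Mthfd2 stood at 58.07 CPM in Acadl KO / Acadvl Het replicate 1 (next 30.51), and Srxn1 at 361.8 CPM in Acadl Het / Acadvl KO replicate 2 (next 156.1).

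The change differed among the 3 matched comparisons, by edgeR's test with 2 degrees of freedom over all genes, in 155 genes. Of the named genes the adjusted p was 0.00794 for Acadl, 1.34e-06 for Acadvl, 0.0131 for Adra1a, 0.00493 for Fabp1, 0.0179 for Igfbp1, 0.00346 for Kng1 and 0.0143 for Mup3. The last 4 are liver genes, and Alb exceeded 10 CPM in 3 of 3 libraries of Acadl Het / Acadvl Het and in 2 of 4 of Acadl KO / Acadvl wt.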

How the results depend on the processing

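No paired analysis was possible because the replicate numbers used here follow accession order and pair no libraries. A block on the first number of the title, whose meaning is unknown, was fitted instead: with it (13 numbers, 3 with a single library, 5 holding both classes), any knockout against none called 1407 genes higher and 1136 lower. Within batch 1 these were 1769 and 1476, the matched comparisons called 57 and 29, 267 and 356, and 158 and 50, the shared response held 19 and 14, and labelled Acadl KO against Acadvl KO called 6 and 107. Within batch 2 the lower calls were 2098 for Acadl KO / Acadvl Het and 1214 for Acadl Het / Acadvl KO, and the contrast of knockouts called 32 and 113. The 155 genes that differed among comparisons became 35 with limma voom, 93 with no filter, 43 at a mean of at least 1 CPM and 2 within batch 2. They became 37 without the 3 knockout libraries above 10 CPM of Alb, which left 431 higher in the contrast of knockouts. Without all 6 such libraries Acadl KO / Acadvl wt had 1762 lower genes. For the matched comparisons, leaving out the 3 or all 6 libraries was chosen after seeing the data. Against the mean of the 3 genotypes without a knockout the shared response was 2071 and 1674, and at an adjusted p under 0.01 it was 740 and 502. The log2 change in Acadl KO / Acadvl wt of Mup3, Apoa4, Igfbp1, Fabp1 and Kng1 turned to -6.636, -2.81, -4.167, -4.167 and -3.483 within batch 1, to -6.084, -3.583, -4.052, -3.764 and -3.308 without the 3 libraries, and to -6.063, -3.516, -4.083 and -3.76 (the first 4) without the 6. The cause was not tested.

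Leaving out 1 library at a time gave 4298 to 4744 higher and 3819 to 4581 lower genes for any knockout, 1036 to 1603 and 737 to 1038 shared genes, and 63 to 231 genes that differed among comparisons, lowest without Acadl Het / Acadvl Het replicate 1 and highest without replicate 2. The contrast of knockouts ranged from 157 to 772 higher and 390 to 1430 lower, lowest without Acadl Het / Acadvl KO replicate 4. No named gene of any knockout against none lost its call on leaving out any library or genotype. Under the title block 13 did: Amica1, Lgi1, Yars2, Ehhadh, Plin2, Eif4ebp1, Idi1, Col4a2, Pln, Stard10, Sox10, Fabp4 and Psph.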
